A study of Mus musculus with 32 samples.

Results

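Adipogenic regulators and genes of lipid uptake and storage were measured by single-cell RNA-seq (scRNA-seq) in cells grown from mouse bone marrow, and 10 genes, matched by symbol, were followed of 31053 in the files. The regulators were Pparg, Cebpa, Cebpb and Cebpd, and the genes downstream were Lpl, Cd36, Fabp4, Adipoq, Plin1 and Cidec. The cells were bone marrow-derived stromal cells from Diversity Outbred mice, an outbred population, cultured under osteogenic conditions in a medium with ascorbic acid, β-glycerophosphate and dexamethasone (BMSC-OBs). There were 16 pools, each of cells from 4 or 5 mice (77 mice in all) and each sequenced in 2 runs. No pool received another treatment, so the groups compared below were cell classes within pools. The pool was the replicate, since cells were not assigned to single mice here. In comparisons of classes, p-values measured how the difference within a pool varied over pools, and not the spread of levels between pools. Age and sex of the mice are not given in the labels used here.

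In fat cell formation, Cebpb and Cebpd encode early transcription factors of the CCAAT/enhancer-binding family, which turn on Pparg and Cebpa. Pparg encodes the nuclear receptor PPARγ, which together with C/EBPα sustains the adipocyte program and activates genes for fatty acid uptake, lipid storage and hormone secretion. In bone marrow, marrow adipogenic lineage progenitors (MALPs) are stromal cells that carry adipocyte regulators but few lipid droplets, and they share their origin with osteoblasts. Dexamethasone, a component of the culture medium, is also a common ingredient of adipogenic media.

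The stretch of 250 bases before the annotated start is shown for 5 of the genes that were higher together in MALP-like cells, chosen after a motif search for their matches, because 3 of them held the C/EBP core, the letters that proteins of the C/EBP family are known to bind. Capitals mark every match, on either strand, to the hexamer of nuclear receptors (AGGTCA), a C/EBP core (TTGCNNAA), a CCAAT box (CCAAT) or a TATA box (TATAAA). Of 32851 mouse promoters of this length, 14.0% held the hexamer, 9.56% the C/EBP core, 33.8% the CCAAT box and 12.4% the TATA box, so a match describes letters and not a binding site. Sequences are from RefSeq on GRCm38.p6, where 7 of the 10 genes were matched by symbol (Cebpd, Lpl and Fabp4 were not), and run 5′ to 3′ on the strand of the gene. The third annotated start of Pparg (chr6:115421816-115422065, forward strand) had 2 C/EBP core matches and 2 CCAAT matches, Adipoq (chr16:23146286-23146535, forward strand) had 3 CCAAT matches, and Cebpa (chr7:35119043-35119292, forward strand) had a TATA match. Plin1 (chr7:79732777-79733026, reverse strand) had 2 C/EBP core matches and the first start of Cidec (chr6:113434765-113435014, reverse strand) had 1. None of these 5 windows held the hexamer, but 3 of the 5 windows not printed did, those of Cd36 and of the first and second starts of Pparg. Cd36 also had a CCAAT match and the second start of Pparg a CCAAT and a TATA match, while Cebpb and the second start of Cidec had no match. The library counts 3′ ends, so the start used by a transcript was not measured.
Pparg: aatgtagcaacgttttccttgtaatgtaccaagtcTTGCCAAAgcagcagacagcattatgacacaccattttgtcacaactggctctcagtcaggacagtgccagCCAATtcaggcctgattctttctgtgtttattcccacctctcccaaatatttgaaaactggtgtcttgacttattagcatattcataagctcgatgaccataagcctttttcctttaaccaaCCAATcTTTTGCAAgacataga
Cebpa: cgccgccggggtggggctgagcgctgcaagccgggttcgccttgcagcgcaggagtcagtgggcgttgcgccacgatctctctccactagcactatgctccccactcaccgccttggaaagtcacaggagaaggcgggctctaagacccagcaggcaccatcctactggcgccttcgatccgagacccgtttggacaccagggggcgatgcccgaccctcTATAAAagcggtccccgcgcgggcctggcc
Adipoq: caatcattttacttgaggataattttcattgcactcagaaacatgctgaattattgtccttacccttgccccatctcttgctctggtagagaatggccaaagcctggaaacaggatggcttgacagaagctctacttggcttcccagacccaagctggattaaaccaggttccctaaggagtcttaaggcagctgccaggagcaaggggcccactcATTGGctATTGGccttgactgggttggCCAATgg
Plin1: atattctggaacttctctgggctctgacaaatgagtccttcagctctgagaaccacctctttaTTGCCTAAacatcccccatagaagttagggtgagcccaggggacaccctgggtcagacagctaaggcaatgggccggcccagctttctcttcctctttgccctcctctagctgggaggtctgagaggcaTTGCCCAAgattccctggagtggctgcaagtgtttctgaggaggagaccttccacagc
Cidec: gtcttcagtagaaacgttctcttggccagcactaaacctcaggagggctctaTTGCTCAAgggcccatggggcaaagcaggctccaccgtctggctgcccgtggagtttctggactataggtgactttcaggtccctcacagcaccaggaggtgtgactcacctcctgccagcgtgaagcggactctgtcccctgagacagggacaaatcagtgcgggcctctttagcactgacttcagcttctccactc

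Run 1 was used, in which a pool held 53990642 to 100777353 unique molecular identifiers (UMIs, each a counted transcript). Of its 107853 barcodes, 98.2% were in run 2, which is a second sequencing of the same droplets (84.5% in pool 13 and at least 98.2% in each other pool), and 2 pools shared 3 to 28 barcodes. After filters, 83906 cells were kept, and 42288 were placed in classes by scores of marker genes that held none of the 10 genes. The classes were 6852 MALP-like cells (Cxcl12, Igfbp4, Kitl, Lepr, Esm1, Hp, Vcam1), 4882 late mesenchymal progenitor-like cells (Tagln, Acta2, Timp3, Aspn, Col3a1), 19136 osteoblast-like cells (Bglap, Ibsp, Ifitm5, Mepe, Dmp1 and others) and 9275 macrophage-like cells (C1qa, Csf1r, Adgre1 and others), with median depths of 9568, 21066, 19200 and 5277 UMIs per cell. Each class is a range of a score, and 503 MALP-like, 954 progenitor-like, 2919 osteoblast-like and 992 macrophage-like cells lay within 0.25 above its limit, while 445, 1021, 1842 and 943 cells lay as close below. The progenitor markers and part of the MALP and osteoblast markers were chosen by the study on these samples. All markers of its own list were detected in each class. The summed level of the 9 osteoblast markers was 12.7 to 39.1 (median 25.6) UMIs per 10,000 over pools in MALP-like cells, 32.1 to 129 (median 89.8) in progenitor-like cells and 790.2 to 1187 (median 994) in osteoblast-like cells. The 10 macrophage markers summed to 0.802 to 2.67 (median 1.67) in MALP-like and 193 to 319 (median 248) in macrophage-like cells. The 7 MALP markers summed to 184 to 261 (median 216) in MALP-like cells, 4.81 to 8.15 (median 6.35) in progenitor-like cells, 0.690 to 3.31 (median 1.32) in osteoblast-like cells and 1.81 to 5.59 (median 3.51) in macrophage-like cells. The 5 progenitor markers summed to 72.3 to 97.3 (median 82.5) in progenitor-like, 8.34 to 13.3 (median 12.1) in MALP-like, 1.22 to 2.74 (median 1.747) in osteoblast-like and 0.496 to 2.19 (median 0.786) in macrophage-like cells, so that progenitor-like cells held osteoblast markers at a like summed level, and the osteoblast markers summed to 5.49 to 27.8 (median 15.1) in macrophage-like cells. The part of such mixed markers in the results below was not tested.

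Plin1 and Cidec had enough counts to be tested only where MALP-like cells were compared, so their direction was fixed by that filter and they are described by their levels alone. The other 8 genes were all higher in MALP-like than in progenitor-like cells, from 0.54 on the log2 scale for Cebpb to 8.29 for Adipoq. Adipoq and Cd36 were low in progenitor-like cells, down to 0.00723 and 0.00170 UMIs per 10,000 in a pool. They passed the filter of this comparison through MALP-like cells, so their direction and lack of overlap here are a description. Of 11345 genes tested in this comparison, 38.6% were higher and 33.9% lower in MALP-like cells. For 7 of the 8 genes, every pool of MALP-like cells was above every pool of progenitor-like cells, which held for 10.1% of all genes, and for 3.07% in the other direction. Cebpb was the exception. Against osteoblast-like cells, 7 genes were higher and Cebpb was lower, where 40.2% of 12261 genes were higher and 40.7% lower, and 6 genes did not overlap between pools, all higher, against 27.6% of all genes higher and 6.05% lower without overlap. Against macrophage-like cells, 6 genes were higher and Cebpb and Cd36 were lower, where 41.4% of 11015 genes were higher and 43.7% lower, and the pools overlapped for none of the 8, against 24.9% of all genes higher and 12.5% lower without overlap. Differences were tested with edgeR's quasi-likelihood test on UMI counts summed per pool and class, with the pool as a block and Benjamini-Hochberg adjustment over all genes tested. The 3 comparisons share the same MALP-like cells.

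**Figure D1:**
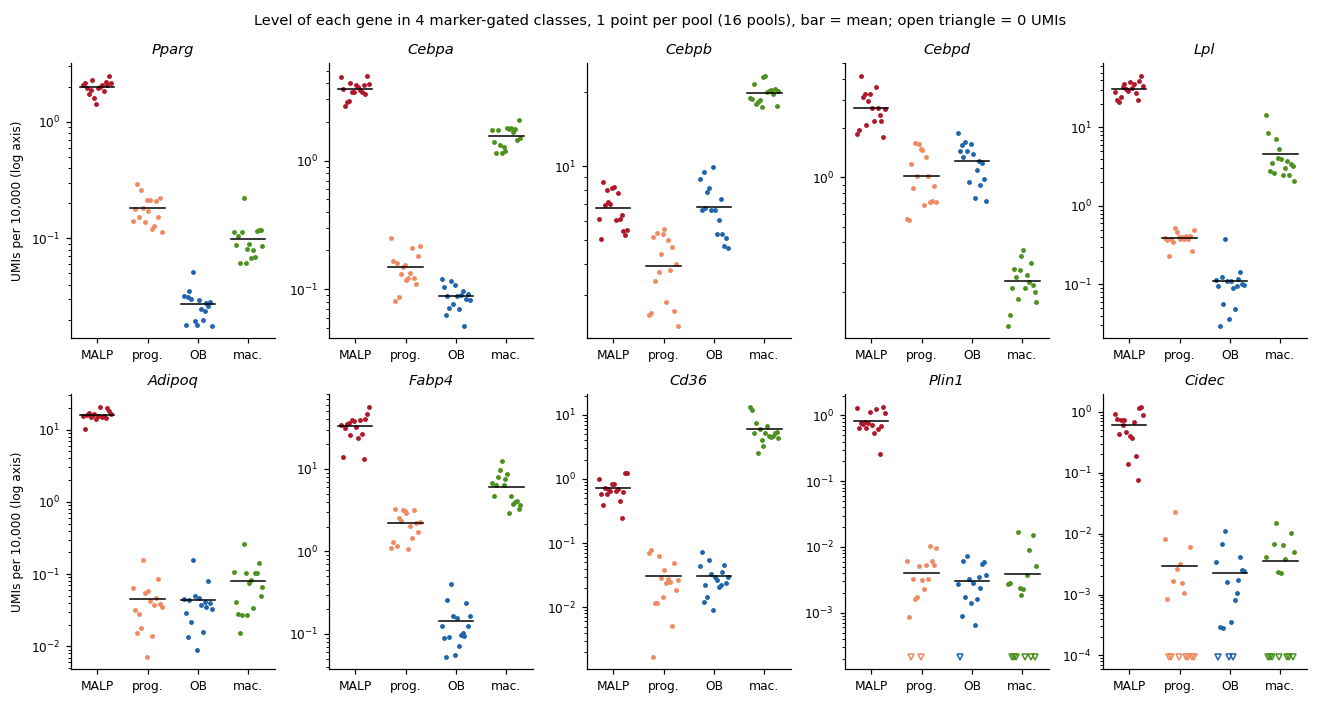
Level of each gene in MALP-like, progenitor-like (prog.), osteoblast-like (OB) and macrophage-like (mac.) cells as UMIs per 10,000 UMIs on a log axis, with 1 point for each of 16 pools, a bar for the mean and open triangles for pools with 0 UMIs. MALP-like cells lie highest for 8 genes, and macrophage-like cells for Cebpb and Cd36.

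Pparg, the gene of the adipocyte nuclear receptor (chromosome 6, 115360951 to 115490399, forward strand, GRCm38), ranged over pools from 1.41 (pool 8) to 2.49 (pool 17) with a median of 2.02 UMIs per 10,000 in MALP-like cells. In progenitor-like cells its level was 0.113 to 0.294 (median 0.174), in macrophage-like cells 0.0611 to 0.224 (median 0.0884) and in osteoblast-like cells 0.0179 to 0.0518 (median 0.0271). The lowest MALP-like pool was thus above the highest pool of each of the other classes, while progenitor-like and macrophage-like pools overlapped. Pparg was higher in MALP-like than in progenitor-like cells (log2 fold change 3.21 ± 0.11, adjusted p = 1.78e-16, edgeR), osteoblast-like cells (5.48 ± 0.11, adjusted p = 2.65e-20) and macrophage-like cells (3.90 ± 0.098, adjusted p = 2.23e-20). It was also present in T-cell-like cells, at 0.311 ± 0.0958 (SD, n = 4 pools), above B-cell-like cells with 0.00784 and granulocyte-like cells with 0.0337, so T-cell-like cells are no reference for its absence.

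Cebpa, the partner that sustains the program with PPARγ and is also a myeloid factor (chromosome 7, 35119293 to 35121928, forward strand), ranged from 2.68 (pool 3) to 4.60 (pool 17) with a median of 3.59 in MALP-like cells. Macrophage-like cells had the next level, 1.14 to 2.06 (median 1.59), followed by progenitor-like cells with 0.0814 to 0.250 (median 0.141) and osteoblast-like cells with 0.0521 to 0.120 (median 0.0881). MALP-like and macrophage-like pools did not overlap, and neither did macrophage-like and progenitor-like pools. Cebpa was higher in MALP-like than in progenitor-like cells (log2 fold change 4.36 ± 0.077, adjusted p = 2.07e-20, edgeR), osteoblast-like cells (4.65 ± 0.079, adjusted p = 4.86e-21) and macrophage-like cells (0.82 ± 0.060, adjusted p = 1.12e-11). In T-cell-like and B-cell-like cells its mean was 0.0255 and 0.0151.

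Cebpb, an early factor of adipogenesis and of myeloid cells (chromosome 2, 167688915 to 167690418, forward strand), had a different order of classes. Its level was 17.4 to 23.3 (median 19.7) in macrophage-like cells, 4.64 to 9.93 (median 6.65) in osteoblast-like cells, 5.07 to 8.61 (median 6.64) in MALP-like cells and 2.26 to 5.58 (median 3.90) in progenitor-like cells. The macrophage-like pools stood above all others, and the other classes overlapped. Between osteoblast-like and MALP-like cells the mean difference over pools was 0.0967 ± 1.28 UMIs per 10,000 (SD, n = 16), with 6 pools higher in osteoblast-like cells (exact sign-flip permutation test, two-sided, p = 0.766). On the scale of the edgeR fit, which rescales each sum by a trimmed mean of M-values (TMM) factor, Cebpb was lower in MALP-like cells (log2 fold change -0.72 ± 0.063, adjusted p = 1.10e-09), and by total UMIs alone there was no call (adjusted p = 0.990). It was lower in MALP-like than in macrophage-like cells (-1.99 ± 0.066, adjusted p = 4.01e-18) and higher than in progenitor-like cells (0.54 ± 0.076, adjusted p = 1.70e-06).

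Cebpd, the other early factor (chromosome 16, 15887286 to 15891031, forward strand), ranged from 1.76 (pool 17) to 4.21 (pool 3) with a median of 2.63 in MALP-like cells, against 0.714 to 1.87 (median 1.30) in osteoblast-like cells, 0.551 to 1.62 (median 0.952) in progenitor-like cells and 0.124 to 0.358 (median 0.225) in macrophage-like cells. MALP-like pools overlapped with osteoblast-like pools, and not with progenitor-like or macrophage-like pools. Cebpd was higher in MALP-like than in progenitor-like cells (log2 fold change 1.15 ± 0.096, adjusted p = 6.20e-10, edgeR) and macrophage-like cells (3.12 ± 0.092, adjusted p = 3.81e-19), and less so than in osteoblast-like cells (0.37 ± 0.11, adjusted p = 0.00521). By total UMIs alone, the log2 fold change against osteoblast-like cells was 1.09. The difference of osteoblast-like minus progenitor-like cells was 0.237 ± 0.453 UMIs per 10,000 and above 0 in 13 of 16 pools, which did not pass the exact sign-flip permutation test (two-sided, p = 0.04996) once adjusted over the 30 pairs of neighboring levels compared (adjusted p = 0.0652). Among the 4 regulators, Pparg and Cebpa thus marked MALP-like cells by 3.21 and 4.36 on the log2 scale over progenitor-like cells, and Cebpb and Cebpd by 0.54 and 1.15.

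Lpl encodes lipoprotein lipase, the secreted enzyme that frees fatty acids from circulating triglyceride (chromosome 8, 68880491 to 68907448, forward strand). In MALP-like cells it ranged from 21.2 (pool 3) to 45.8 (pool 17) with a median of 31.4 UMIs per 10,000. Macrophage-like cells held 2.08 to 14.2 (median 3.47), progenitor-like cells 0.231 to 0.526 (median 0.388) and osteoblast-like cells 0.0299 to 0.384 (median 0.0999). All MALP-like pools were above all macrophage-like pools. Lpl was higher in MALP-like than in progenitor-like cells (log2 fold change 6.04 ± 0.10, adjusted p = 2.07e-20, edgeR), osteoblast-like cells (7.63 ± 0.24, adjusted p = 3.75e-17) and macrophage-like cells (2.55 ± 0.19, adjusted p = 2.17e-11). The osteoblast-like mean, 0.110 ± 0.0801 (SD, n = 16 pools), was no higher than that of T-cell-like cells, 0.122 ± 0.143 (SD, n = 4 pools), but the sets of pools differ. In pools 5, 6 and 8, osteoblast-like cells held 0.0557, 0.384 and 0.0362 against 0, 0.277 and 0 in T-cell-like cells. The remaining T-cell-like pool, pool 14, held 0.210 and is left out of this pairing. The osteoblast-like level of pool 6 was above all 4 T-cell-like pools. The source of these UMIs was not tested. Osteoclast-like cells held 4.19 to 15.3 (median 7.14) in the 4 pools with at least 20 such cells.

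Cd36, a scavenger receptor that takes up fatty acids and oxidized lipoproteins (chromosome 5, 17781690 to 17888801, reverse strand), was highest in macrophage-like cells, from 2.55 (pool 5) to 13.4 (pool 1) with a median of 5.15. MALP-like cells held 0.251 to 1.26 (median 0.673), and progenitor-like and osteoblast-like cells 0.00170 to 0.0768 (median 0.0257) and 0.00905 to 0.0725 (median 0.0281). The lowest macrophage-like pool was above the highest MALP-like pool. Cd36 was lower in MALP-like than in macrophage-like cells (log2 fold change -3.43 ± 0.18, adjusted p = 3.26e-14, edgeR), and higher than in progenitor-like cells (4.25 ± 0.22, adjusted p = 1.66e-13) and osteoblast-like cells (3.87 ± 0.22, adjusted p = 8.24e-13). The value against progenitor-like cells is a description, since Cd36 passed the filter there through MALP-like cells. The levels of progenitor-like and osteoblast-like cells lay at those of T-cell-like (0.0227) and B-cell-like cells (0.0441). By the level of whole classes, uptake genes thus split between both, with Lpl highest in MALP-like and Cd36 in macrophage-like cells. Within MALP-like cells Cd36 was uneven. Cells with UMIs of both Plin1 and Cidec held 4.99 (3.90 to 6.85 over 7 pools), within the range of macrophage-like pools, and cells with neither held 0.174.

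Fabp4, the cytosolic fatty acid carrier of adipocytes, macrophages and endothelium (chromosome 3, 10204088 to 10208576, reverse strand), ranged from 13.3 (pool 13) to 57.0 (pool 18) with a median of 34.6 in MALP-like cells, 2.93 to 12.5 (median 5.52) in macrophage-like, 1.07 to 3.27 (median 2.24) in progenitor-like and 0.0531 to 0.407 (median 0.112) in osteoblast-like cells. The lowest MALP-like pool stood just above the highest macrophage-like pool, 12.5 in pool 6. In the 5794 MALP-like cells with no UMI of Plin1 or Cidec, Fabp4 was 7.63. Their pools, from 3.23 to 18.0, overlapped with macrophage-like pools. After thinning (below), the share of cells with a Fabp4 UMI was 45.8% in MALP-like and 44.8% in macrophage-like cells. Fabp4 was higher in MALP-like than in progenitor-like cells (log2 fold change 3.68 ± 0.19, adjusted p = 2.66e-13, edgeR), osteoblast-like cells (7.27 ± 0.25, adjusted p = 2.08e-16) and macrophage-like cells (2.06 ± 0.19, adjusted p = 4.97e-10). The osteoblast-like level was within that of T-cell-like cells, 0.232 ± 0.188 (SD, n = 4 pools). In progenitor-like cells all pools lay above the highest T-cell-like pool.

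Adipoq, the gene of the adipocyte hormone adiponectin (chromosome 16, 23146536 to 23158028, forward strand), ranged from 10.1 (pool 2) to 20.8 (pool 10) with a median of 15.5 in MALP-like cells. In progenitor-like, osteoblast-like and macrophage-like cells the level was 0.00723 to 0.159 (median 0.0382), 0.00905 to 0.157 (median 0.0386) and 0.0153 to 0.258 (median 0.0708), each highest in pool 6. T-cell-like cells held 0.0897 ± 0.0895 (SD, n = 4 pools), 27 UMIs in all. The means of the 3 other main classes, over 16 pools, were no higher, and their levels are not read as expression. The sets of pools differ, however. In pools 5 and 6 macrophage-like cells held 0.0274 and 0.258 against 0 and 0.189 in T-cell-like cells, and in pool 8 0.0276 against 0.0298. The remaining T-cell-like pool, pool 14, held 0.140 and is left out of this pairing. Where the Adipoq UMIs outside MALP-like cells came from was not tested. Adipoq had the largest log2 fold change of the 11345 genes tested between MALP-like and progenitor-like cells (8.29 ± 0.23, adjusted p = 6.62e-18, edgeR). This rank is a description, since Adipoq passed the filter of that comparison through MALP-like cells. The values against osteoblast-like and macrophage-like cells were 8.03 ± 0.26 (rank 5 of 12261) and 7.27 ± 0.21 (rank 17 of 11015).

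Plin1, which encodes the coat protein perilipin 1 of lipid droplets (chromosome 7, 79720218 to 79732903, reverse strand), ranged from 0.254 (pool 13) to 1.36 (pool 17) with a median of 0.747 in MALP-like cells. Progenitor-like, osteoblast-like and macrophage-like cells held 38, 122 and 24 Plin1 UMIs in all, with means of 0.00401, 0.00309 and 0.00391 UMIs per 10,000. Cidec, whose protein joins droplets into larger ones (chromosome 6, 113424634 to 113435760, reverse strand), ranged from 0.0748 (pool 13) to 1.21 (pool 17) with a median of 0.645 in MALP-like cells and held 30, 85 and 21 UMIs in the other classes in the same order. The lowest MALP-like pool of each gene lay above the highest pool of the other 3 classes, where several pools held 0 UMIs. No fold or test is given for them, since both passed the low-count filter only through MALP-like cells. The order among the other 3 classes was not resolved for either gene (exact sign-flip permutation tests, two-sided, lowest unadjusted p = 0.480).

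Among the rarer classes, osteoclast-like cells (383 cells, 176 of them within 0.25 above the limit of their score, with no limit on the macrophage score) held Lpl, Cd36, Cebpb and Cebpa, with means of 8.45 ± 4.95, 3.25 ± 2.35, 11.3 ± 2.73 and 0.988 ± 0.0755 UMIs per 10,000 (SD, n = 4 pools). The 71 endothelial-like cells were summed over pools, since no pool had 20 of them, and their Fabp4 level of 15.4 (exact Poisson interval 14.8 to 16.1) was the highest after that of MALP-like cells. In the 1087 granulocyte-like cells Cebpb was 5.28 ± 1.60 and Cebpd 1.34 ± 0.407 (SD, n = 10 pools), and T-cell-like and B-cell-like cells had Cebpb at 1.22 ± 0.300 and 2.42 ± 0.512 (SD, n = 4 pools). Intervals here and below cover counting error only.

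**Figure D2:**
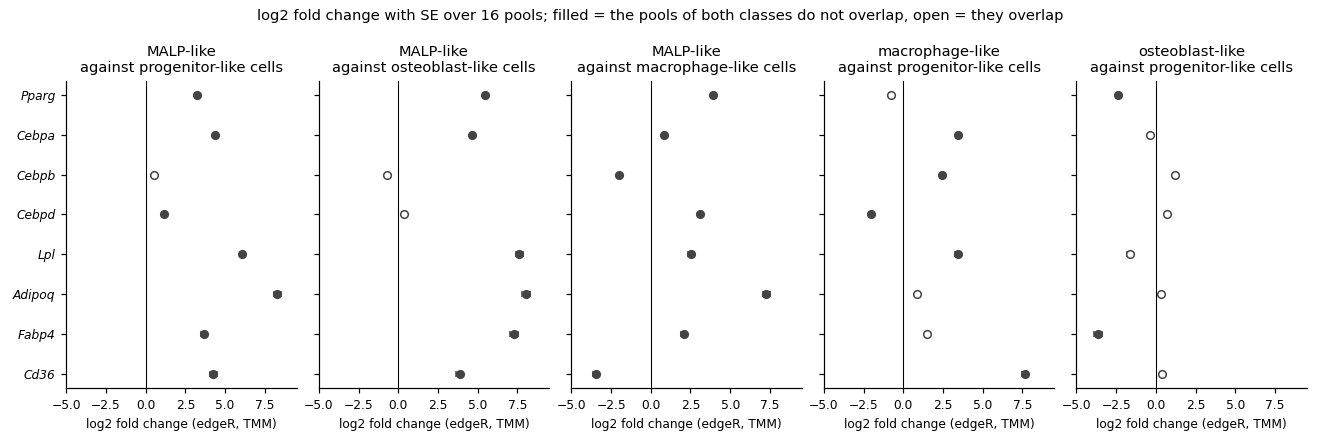
log2 fold change with an SE derived from the F statistic (edgeR, 16 pools) of 8 genes in 5 comparisons of classes. Filled points mark genes whose pools do not overlap between both classes, and Plin1 and Cidec are left out. Adipoq lies farthest to the right in the 3 comparisons of MALP-like cells, from 7.27 to 8.29, and Cd36 at 7.67 between macrophage-like and progenitor-like cells. Against progenitor-like cells, Adipoq passed the filter through MALP-like cells and Cd36 through MALP-like or macrophage-like cells, so these points are a description.

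Macrophage-like and progenitor-like cells were compared to place the uptake genes outside MALP-like cells. Of 8 genes tested, 6 were higher in macrophage-like cells, with Cd36 at 7.67 ± 0.19, Cebpa at 3.47 ± 0.092, Lpl at 3.42 ± 0.17, Cebpb at 2.45 ± 0.11, Fabp4 at 1.52 ± 0.15 and Adipoq at 0.88 ± 0.12 on the log2 scale. Cd36, down to 0.00170 UMIs per 10,000 in a progenitor-like pool, passed the filter here through macrophage-like cells, so its direction is a description. The mean of Adipoq over 16 pools was in both classes no higher than that of the 4 T-cell-like pools. Cebpd and Pparg were lower, at -2.06 ± 0.095 and -0.78 ± 0.13. Among 11142 genes tested, 40.5% were higher and 44.0% lower in macrophage-like cells. Pools did not overlap for 5 genes, 4 of them higher (16.8% of all genes) and Cebpd lower (18.5% of all genes). The largest adjusted p of the 8 was 5.25e-06 (edgeR).

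Osteoblast-like and progenitor-like cells were compared to follow the genes along the osteogenic side of the culture, although progenitor-like cells also held osteoblast markers (above). Fabp4, Pparg and Lpl were lower in osteoblast-like cells, at -3.65 ± 0.25, -2.36 ± 0.12 and -1.64 ± 0.16 on the log2 scale, and Cebpa was at -0.35 ± 0.077, which became 0.04 with an adjusted p of 0.710 under a stricter gate. Cebpb and Cebpd were higher, at 1.19 ± 0.10 and 0.71 ± 0.13, but Cebpd was 0.33 by total UMIs alone (adjusted p = 0.0252, edgeR) and its difference in UMIs per 10,000 did not pass the permutation test given above. In this comparison 39.9% of 12148 genes were higher and 38.7% lower, and among the 8 genes tested only Pparg and Fabp4 did not overlap, both lower (11.4% of all genes, with 4.54% higher). Cd36 and Adipoq, both low in these classes, had 0.41 ± 0.15 and 0.33 ± 0.085 on the TMM scale, but 0.04 and -0.05 by total UMIs alone (adjusted p = 0.804 and 0.587, edgeR), so no difference is read from them.

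The scale mattered for small differences. TMM factors moved log2 fold changes on average by -0.27, -0.72 and -0.42 in MALP-like against progenitor-like, osteoblast-like and macrophage-like cells, and by 0.07 and 0.38 in macrophage-like and osteoblast-like against progenitor-like cells, relative to total UMIs alone. The genes called were 4382 higher and 3845 lower with TMM and 6727 higher and 2196 lower without it for MALP-like against progenitor-like cells, 4925 higher and 4993 lower with TMM and 9066 higher and 2052 lower without it against osteoblast-like cells and 4561 higher and 4818 lower with TMM and 6399 higher and 3120 lower without it against macrophage-like cells. For osteoblast-like against progenitor-like cells they were 4848 higher and 4703 lower with TMM and 2534 higher and 7630 lower without it. The fit without a scaling factor was added after the data were seen. Directions of the 8 genes other than Plin1 and Cidec stayed the same under both scales, except for Adipoq between osteoblast-like and progenitor-like cells, and Cebpb between MALP-like and osteoblast-like cells lay at 0 without the factor. For Adipoq and Cd36 in MALP-like, and Cd36 in macrophage-like, against progenitor-like cells, the filter had fixed the direction.

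The share of cells with a UMI was compared after each cell was thinned to 2000 UMIs, since depth differed between classes. No gated cell was shallower. Lpl was detected in 76.8% ± 6.65 of thinned MALP-like cells (SD, n = 16 pools; 92.6% unthinned), Adipoq in 72.1% ± 5.85 (85.3%), Cebpa in 44.9% ± 6.06 (82.9%) and Pparg in 28.2% ± 3.60 (64.0%). Fabp4 was detected in 45.8% ± 9.18 (63.5%). Cd36, Plin1 and Cidec were detected in 8.56% ± 2.71, 8.01% ± 3.04 and 3.06% ± 1.95, so that most MALP-like cells showed no UMI of them at this depth. In macrophage-like cells, thinned shares were 52.1% ± 12.5 for Cd36, 44.8% ± 10.5 for Fabp4 and 30.3% ± 12.8 for Lpl, with 71.0%, 62.5% and 45.6% unthinned. In T-cell-like cells, with a median depth of 4794 UMIs, the thinned shares of Lpl, Adipoq, Fabp4 and Cd36 were 2.21% ± 2.62, 2.80% ± 2.42, 5.05% ± 4.44 and 0.628% ± 0.748 (n = 4 pools), and 2.87% ± 1.27 for Pparg. The thinned Adipoq shares of progenitor-like (1.17% ± 1.07), osteoblast-like (0.914% ± 0.590) and macrophage-like cells (1.90% ± 1.53), over 16 pools, were no higher than the Adipoq mean of the 4 T-cell-like pools. In progenitor-like cells, Fabp4 (19.7% ± 5.18, 53.9% unthinned) and Lpl (8.42% ± 2.09, 41.6% unthinned) were above the T-cell-like share.

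Among stromal cells without leukocyte markers, the level of each gene was followed along 6 ranges of the MALP marker score, from 0 to 0.5 (6919 cells) to over 2.5 (4370 cells). Pparg went from 0.144 ± 0.0425 UMIs per 10,000 (SD, n = 16 pools) to 0.537 ± 0.125 at a score of 1 to 1.5 and 2.33 ± 0.424 in the top range. Cebpa went from 0.148 ± 0.0423 to 3.91 ± 0.644, Lpl from 0.273 ± 0.0806 to 33.5 ± 7.63 and Adipoq from 0.0465 ± 0.0412 to 19.2 ± 3.01. Cebpb and Cebpd, which were already present in the lowest range, at 4.17 ± 1.246 and 0.964 ± 0.313, reached 6.51 ± 1.24 and 3.06 ± 0.844. These 6 genes were highest in the top range. The other 4 were highest below it, with Fabp4 at 32.5 ± 16.1 for scores of 1.5 to 2 and 19.7 ± 5.65 in the top range, and Cidec at 1.16 ± 0.957 for scores of 1 to 1.5 and 0.0768 ± 0.0829 in the top range. Plin1 and Cd36 were highest at scores of 2 to 2.5, with 0.727 ± 0.380 and 0.622 ± 0.330. This fall depended on the markers. In another setting every marker list was cut to its even-numbered genes, which left Igfbp4, Lepr and Hp in the MALP list. All 10 genes were then highest in the top range, and Cidec was 0.0454 at scores of 1 to 1.5 and 1.15 above 2.5. Since the limits on other scores changed as well, the part of the MALP markers alone was not tested. A score range is not a cell type or a time, and median depth fell from 19606 to 9230 UMIs per cell along it.

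**Figure D3:**
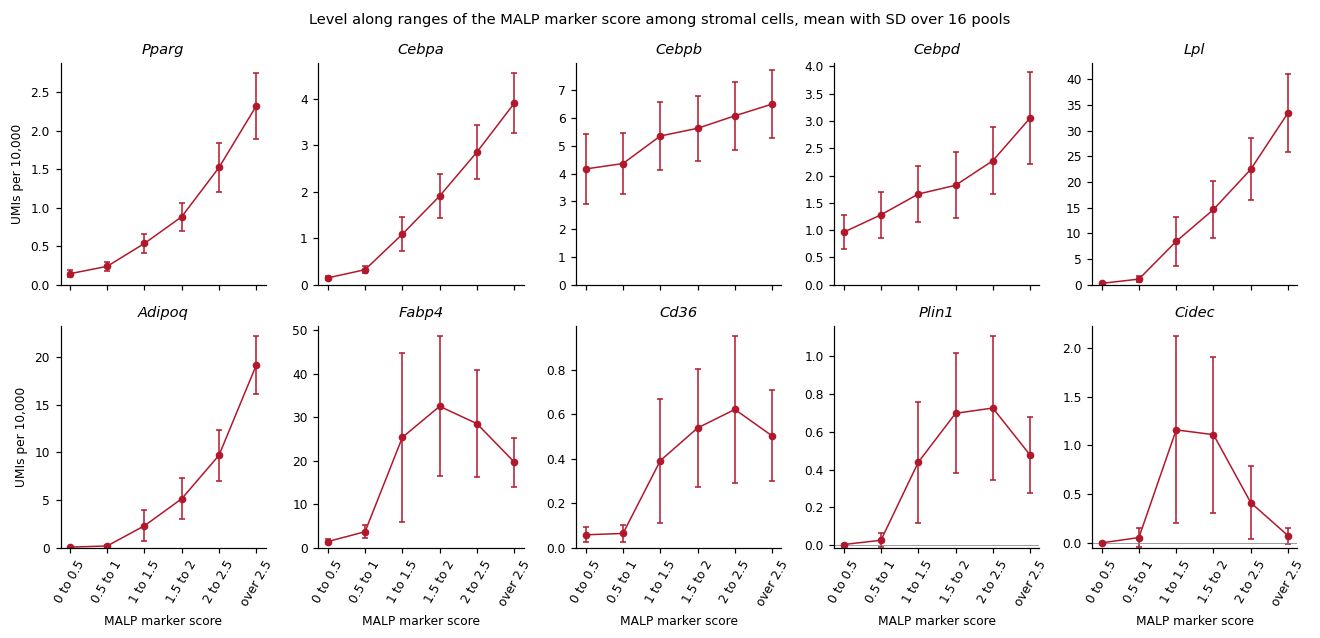
Mean level of each gene, in UMIs per 10,000 with the SD over 16 pools, in 6 ranges of the MALP marker score among stromal cells, with osteoblast-like cells left out. Pparg, Cebpa, Cebpb, Cebpd, Lpl and Adipoq are highest at scores over 2.5, while Fabp4, Cd36, Plin1 and Cidec peak lower. Cidec falls from 1.16 to 0.0768. This fall turns into a rise when every marker list is cut to its even-numbered genes (Igfbp4, Lepr and Hp in the MALP list).

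Cells with UMIs of both Plin1 and Cidec, as a mature adipocyte would have, were counted. There were 353 among 6852 MALP-like cells, or 5.15% (exact 95% binomial interval 4.64% to 5.70%, counting error only). The progenitor-like and osteoblast-like classes held 1 such cell each, and the 9275 macrophage-like cells held 0, which allows a share of up to 0.0323% of cells with UMIs of both at a median depth of 5277 UMIs. A further 210 such cells were in no class, of which 179 had a MALP marker score under 1.5. The share among MALP-like cells ranged from 2.19% in pool 13 (5 of 228 cells) to 12.4% in pool 17 (40 of 323 cells) (exact intervals 0.716% to 5.04% and 9.00% to 16.5%). These are the extremes of 16 pools, each a single library, and no difference between them was tested. The share depended on the gate. It was 7.46% with the even-numbered genes of every marker list (Igfbp4, Lepr and Hp in the MALP list). With the odd-numbered genes of every list (Cxcl12, Kitl, Esm1 and Vcam1 in the MALP list) it was 2.82%.

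These cells differed in other genes as well, given here as a description, since Plin1 and Cidec chose them and they were deeper (median 13911 UMIs against 9101 in the 5794 MALP-like cells with neither). Over all cells with both, Fabp4 was 249 UMIs per 10,000 against 7.63 in cells with neither, Lpl 113 against 19.3 and Cd36 4.99 against 0.174. Adipoq was 38.9 against 12.8, Cebpa 8.39 against 3.05 and Pparg 3.61 against 1.63. Cebpb was near equal, 6.95 against 6.64, and Cebpd was lower, 0.935 against 2.72. In the 7 pools with at least 20 such cells, Fabp4 was between 214 and 398 and Cebpd between 0.473 and 1.23, neither of which overlapped with the 16 pools of cells with neither gene (3.23 to 18.0 and 1.96 to 4.50). The cells with both that were in no class had Fabp4 at 306, Lpl at 96.3 and Cebpd at 0.680.

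**Figure D4:**
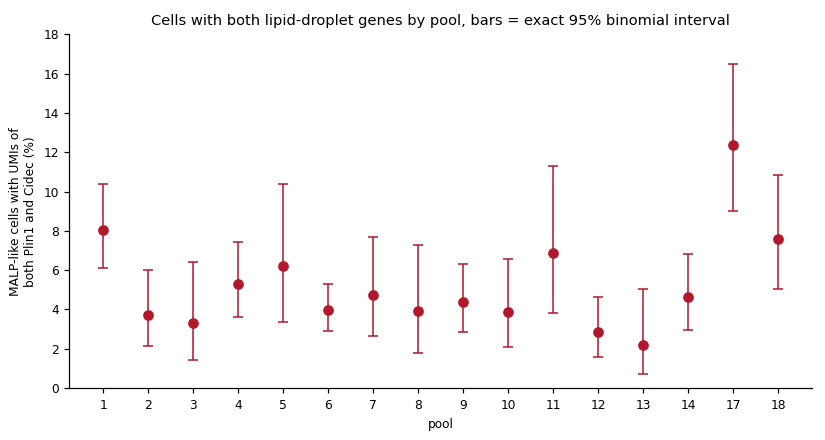
Percent of MALP-like cells with UMIs of both Plin1 and Cidec in each of 16 pools, with exact 95% binomial intervals, which cover counting error only. Pool 17 lies highest at 12.4% and pool 13 lowest at 2.19%.

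Within MALP-like cells, the ratio of the highest to the lowest pool was largest for the droplet gene Cidec. The highest pool was 1.76 times the lowest for Pparg, 1.72 for Cebpa, 1.70 for Cebpb and 2.39 for Cebpd, against 2.17 for Lpl, 2.05 for Adipoq, 4.29 for Fabp4, 5.03 for Cd36, 5.33 for Plin1 and 16.2 for Cidec. Pool 13, the pool with the fewest barcodes shared by both runs as a percentage, set the lowest level of Cd36, Plin1 and Cidec, and without it the ratios were 3.18, 2.48 and 8.80. Pool 17 was highest for Pparg, Cebpa, Lpl, Cd36, Plin1 and Cidec and lowest for Cebpd, and pool 13 was lowest for Fabp4, Cd36, Plin1 and Cidec. Whether pools with more Pparg or Cebpa also held more of the 6 lipid genes was tested over 12 pairs. None passed an adjusted p of 0.05 by permutation of 16 pools. By Pearson r 11 of 12 were positive, some of them near 0, such as Cebpa with Adipoq (0.0519). By Spearman rho, Pparg with Fabp4, Pparg with Plin1 and Cebpa with Fabp4 were negative (-0.115, -0.0941 and -0.0382). The pairs share pools and regulators, so no trend is read from this count. The highest were Cebpa with Cd36 (Pearson r = 0.588, permutation p = 0.0164, adjusted p = 0.122; Spearman rho = 0.479, p = 0.0634, adjusted p = 0.381) and Pparg with Cidec (r = 0.569, permutation p = 0.0203, adjusted p = 0.122; rho = 0.524, p = 0.0397, adjusted p = 0.381). When the 2 pools with the most extreme regulator levels were left out, r was 0.346 and 0.263. Without pool 13 alone, both pairs passed, with r = 0.740 and 0.739 (adjusted p = 0.00966 for both). The median depth per cell was related to none of the 10 genes (10 pairs, lowest adjusted p of r = 0.925).

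The low level of Adipoq outside MALP-like cells was set against the share of MALP-like cells in the pool, which ran from 3.39% of kept cells in pool 13 to 19.7% in pool 6. In osteoblast-like cells, r was 0.873 (permutation p = 8.00e-05, adjusted p = 0.00240) and rho 0.832 (p = 0.000140, adjusted p = 0.00420) over 16 pools, with r = 0.694 once the 2 pools with the most extreme shares were left out. In progenitor-like and macrophage-like cells r was 0.847 and 0.777 (adjusted p = 0.00465 and 0.0122, permutation) and rho 0.641 and 0.518 (adjusted p = 0.122 and 0.155). Of 30 such relations for the 10 genes in 3 classes, 9 passed by r and 1 by rho, and none passed by r without pool 6. This set of relations was added after the data were seen.

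**Figure D5:**
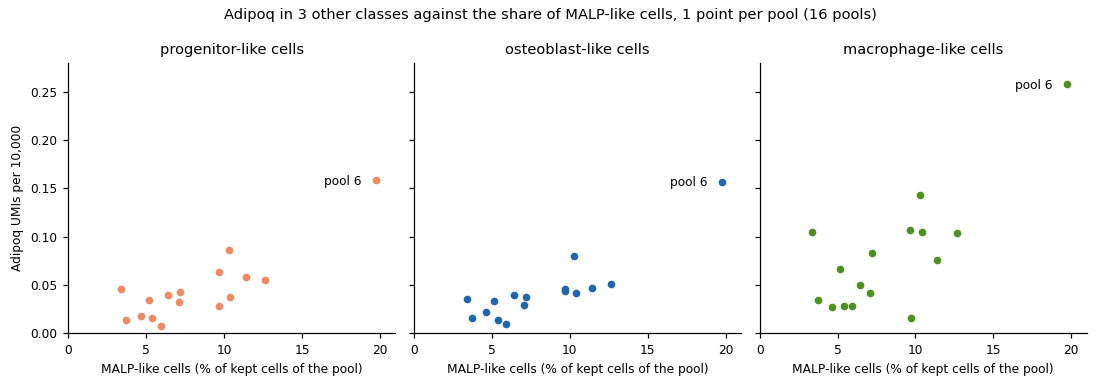
Adipoq in progenitor-like, osteoblast-like and macrophage-like cells, in UMIs per 10,000, against the percent of kept cells of a pool that were MALP-like, with 1 point for each of 16 pools. Pool 6, with 19.7% MALP-like cells, lies highest in all 3 panels.

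The ratio of each gene to Adipoq was taken over the summed UMIs of each class, as a description. Plin1 per Adipoq UMI was 0.0515 in MALP-like, 0.0798 in progenitor-like, 0.0761 in osteoblast-like and 0.0493 in macrophage-like cells, and Cidec 0.0415, 0.0630, 0.0530 and 0.0431. Lpl was 1.99 and 2.48 per Adipoq UMI in MALP-like and osteoblast-like cells, 8.61 in progenitor-like and 72.4 in macrophage-like cells, and Fabp4 was 2.04, 3.38, 44.3 and 77.3 in the same order. In progenitor-like cells Pparg, Cebpa and Cd36 were 4.03, 3.28 and 0.75. In osteoblast-like cells Pparg, Cebpa and Cd36 were 0.664, 2.09 and 0.677 per Adipoq UMI, against 0.126, 0.233 and 0.0464 in MALP-like cells. There, Plin1, Cidec, Lpl and Fabp4 thus lay nearer to the proportions of MALP-like cells than Pparg, Cebpa and Cd36 did. Plin1 and Cidec outside MALP-like cells rest on 21 to 122 UMIs. Pool 6 gave 13 of the 30 Cidec UMIs of progenitor-like cells and 23 of the 85 of osteoblast-like cells. In progenitor-like and in macrophage-like cells, 9 pools held at least 20 Adipoq UMIs. The source of the UMIs outside MALP-like cells was not tested.

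A wider list of 79 related genes was followed in the same comparisons, chosen like the 10 with earlier results of these data known. Of 65 tested in MALP-like against progenitor-like cells, 38 were higher (58.5%, against 38.6% of all genes), 19 lower (33.9% of all genes) and 8 not called, with a median log2 fold change of 0.61 against 0.04 over all genes. Genes detected mainly in 1 class entered the list through that class, as Apoc1, Cfd, Lipe, Ppargc1b and Retn did through MALP-like cells. Wnt10b did so through progenitor-like cells. Retn, the gene of resistin, was at 0.985 UMIs per 10,000 against 0.00384 in progenitor-like cells. The counts above and the group counts below are thus a description, to be read against the same shares of all genes. The lipolysis group was higher in 6 of 7 genes, with Lipa, the lysosomal acid lipase, at 0.33 ± 0.065 and Mgll, monoglyceride lipase, lower at -1.72 ± 0.12. Lipe, hormone-sensitive lipase, held 0.435 UMIs per 10,000 in MALP-like and 0.0139 in progenitor-like cells. Among lipid droplet proteins, 5 of 6 were higher, led by G0s2, an inhibitor of adipose triglyceride lipase, at 5.23 ± 0.16 and Plin4 at 3.21 ± 0.24, with Bscl2, the gene of seipin, at 0.99 ± 0.054 and Plin3 lower at -0.22 ± 0.059. In triglyceride synthesis 5 of 6 were higher, among them Dgat1 at 1.59 ± 0.065, Lpin1 at 1.44 ± 0.092 and Agpat2 at 0.80 ± 0.073, and Lpin2 was lower at -0.18 ± 0.077. Plin3, Lpin2 and Acsl5 (-0.24) were lower by less than the mean TMM shift of -0.27, and Lrp1 (-0.29) by little more, so their direction or call, and the group counts that hold them, depend on the scale. Of 7 adipokines and receptors, 4 were higher and 3 lower. Cfd, the gene of adipsin, held 4.29 UMIs per 10,000 in MALP-like and 0.0118 in progenitor-like cells, whereas Cdh13, an adiponectin receptor, had a log2 fold change of -2.67 ± 0.14.

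The groups around lipid uptake were divided. Of 10 lipoprotein lipase partners and lipoprotein receptors, 3 were higher and 5 lower in MALP-like than in progenitor-like cells, with Apoe at 5.04 ± 0.11, Vldlr at -1.70 ± 0.15 and Angptl2 at -1.61 ± 0.11. Of 12 fatty acid transport and binding genes, 4 were higher and 5 lower, with Acsl1, which activates fatty acids, at 2.64 ± 0.14, Cavin2 at 2.06 ± 0.22, and the other binding proteins Fabp5 and Fabp3 at -2.42 ± 0.18 and -2.28 ± 0.12, opposite to Fabp4. Of 8 relatives and partners of PPAR and C/EBP, 5 were higher and none lower, among them Nr1h3 (LXRα) at 2.87 ± 0.061, Rxra, the heterodimer partner of PPARγ, at 1.04 ± 0.065, Cebpg at 0.61 ± 0.079 and Ppard at 0.46 ± 0.072. Of 9 other adipogenic factors and inhibitors, 6 were higher and 3 lower, with Zfp423 at 2.01 ± 0.11 and Klf15 at 1.73 ± 0.17 and with Wnt10b, a Wnt ligand that inhibits adipogenesis, at -4.07 ± 0.21 and Klf4 at -1.77 ± 0.066. The largest adjusted p of the genes named with a fold was 0.0391 (edgeR, Lpin2). Against osteoblast-like and macrophage-like cells, 39 of 69 (56.5%, against 40.2% of all genes) and 37 of 62 (59.7%, against 41.4%) of the listed genes were higher and 24 and 22 lower (40.7% and 43.7% of all genes), and lipolysis genes were again higher in 6 of 7. Between macrophage-like and progenitor-like cells 30 of 59 (50.8%) were higher and 23 lower, against 40.5% and 44.0% of all genes. Between osteoblast-like and progenitor-like cells 30 of 64 (46.9%) were higher and 23 lower, against 39.9% and 38.7% of all genes, which is near the share of all genes.

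The genes most like 5 of the members were named by Pearson correlation of log2 CPM (library-scaled counts, with 10 added) over 86 sums of a class and a pool, among 8339 genes. These sums share libraries, so no p is given. Adipoq was most like Igfbp3, Kng2, Kng1, the gate marker Esm1 and Gdpd2 (r from 0.985 to 0.991). Pparg was most like Gpm6b, the gate marker Kitl, Rspo3, Mrps6 and Ptgfr (0.941 to 0.950). Lpl was most like Cebpa (0.958), Il1rn, Fabp4 (0.931), Glul and Plpp3. Cd36 was most like Igf1, Ctsb, Trem2, Lhfpl2 and Apoe (0.941 to 0.962), and Cebpd was most like Id1 (0.940), followed by Tanc1, Rgcc, Gcnt2 and Ctdspl (0.868 to 0.885). Trem2, Ctsb and Apoe are known from macrophages.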

How the data were processed

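The samples were droplet 3′ single-cell libraries of 16 pools, and per the labels the authors deposited UMI counts per gene and barcode, made with Cell Ranger 5.0.0 according to the submitters' processing notes. Run 1 was used, and run 2 was an alternative. The 10 genes, the wider list and the markers were chosen with earlier results of these data known. Cells with 400 to 6200 genes, at most 10% mitochondrial, 20% Rpl and 15% Rps counts were kept (88909), and 5003 simulated-neighbor doublets (0.8% per 1000 barcodes) were removed. Cells with at least 2000 UMIs were gated by mean ln(1 + UMIs per 10,000) of markers (MALP-like and progenitor-like at least 1.5, with limits on the other scores). Counts were summed per pool and class with at least 20 cells and tested with edgeR 4.0.16 (quasi-likelihood, TMM, pool as a block, adjusted p at most 0.05). The SE given after ± beside a log2 fold change was not an output of the fit. It is the size of the fold divided by the square root of the quasi-likelihood F. The step was tested on simulated data. Same-numbered sums shared a pool, and their deviations correlated in every pool (lowest 0.110). Single values used exact sign-flip permutation tests over 16 pools, and correlations 100000 permutations. Promoters were compared with all RefSeq promoters. Genes named outside the 10 were the most changed up to 2 higher and 2 lower per group of the wider list and the 5 most alike. Some of them are not reported here. DESeq2 1.42.0, other gates and filters, thinning, no replicate block and omission of each pool were alternatives. Coordinates are from GENCODE M21 (GRCm38).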

Additional observations from a re-analysis of the deposited data

Results flagged for a closer look

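In 38 groups of 4 to 10 pools, all of rarer classes, 10 values stood apart from the other pools of their class by a gap test, most from few UMIs. The main classes were not put to this test. The test flags about 1 in 20 groups by chance, but where all other pools held 0 it flags any UMI, which holds for 5 of the 10 (Pparg and Cidec in B-cell-like, Cidec in T-cell-like, and Cidec and Plin1 in osteoclast-like cells). Pool 6, which had the highest share of MALP-like cells (19.7%), was far above the other 3 pools in B-cell-like cells for Adipoq (0.240 UMIs per 10,000 against 0.0311 in the nearest pool, 23 UMIs in 74 cells), Fabp4 (0.355 against 0.0934, 34 UMIs), Pparg (0.0313, 3 UMIs) and Cidec (0.0104, 1 UMI), where the other pools held 0 Pparg and Cidec UMIs. In T-cell-like cells of pool 6, Cidec was 0.0437 (3 UMIs in 97 cells) against 0 elsewhere. In granulocyte-like cells of pool 6, Fabp4 was 0.446 against 0.294 in the nearest of 10 pools (23 UMIs in 96 cells) and Plin1 was 0.0194 (1 UMI). Cidec was 0.0258 in granulocyte-like cells of pool 7 (1 UMI in 48 cells). In osteoclast-like cells of pool 1, Cidec was 0.0137 and Plin1 0.00687 (2 and 1 UMIs in 123 cells), against 0 in the other 3 pools. The part of free RNA in these values was not tested.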

How the results depend on the processing

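Of 514 fold changes of the 8 genes other than Plin1 and Cidec under 13 other settings, 503 kept their direction and their side of the threshold, and so did all 640 with 1 pool left out. Both counts hold Adipoq and Cd36 in MALP-like against progenitor-like cells and Cd36 in macrophage-like against progenitor-like cells. Their direction there was fixed by the filter, so those values do not speak to stability. Between osteoblast-like and progenitor-like cells, Cebpa turned to 0.041 under a stricter gate (adjusted p = 0.71, edgeR) and Adipoq to -0.049 without a scaling factor (adjusted p = 0.59). A further 9 values lost their call. Cebpb did so between MALP-like and osteoblast-like cells without a scaling factor. The others were between osteoblast-like and progenitor-like cells. Cebpa lost its call after thinning (-0.27, adjusted p = 0.154, edgeR). Adipoq did with run 2, the odd-numbered markers and no replicate block (0.17, 0.01 and 0.30). Cd36 did with doublets kept, the stricter gate, no replicate block and no scaling factor (0.38, 0.31, 0.32 and 0.04, adjusted p from 0.0564 to 0.805, edgeR). The even-numbered and odd-numbered settings halved every marker list, and not the MALP list alone. Without the pool as a block, genes called were 7557, 9434, 9057, 9127 and 8668 against 8227, 9918, 9379, 9423 and 9551 with it (MALP-like against progenitor-like, osteoblast-like and macrophage-like cells, then macrophage-like and osteoblast-like against progenitor-like cells), and the block changed no other call of the 8 genes. DESeq2 called, in this order, 8014, 9870, 9363, 9413 and 9522. After thinning to 2000 UMIs, 4191 genes were called between MALP-like and progenitor-like, 6275 between MALP-like and osteoblast-like, 5759 between macrophage-like and progenitor-like and 5098 between osteoblast-like and progenitor-like cells, since counts were fewer. Cells with both Plin1 and Cidec were 3.85% of MALP-like cells under the stricter gate. They were 7.46% with the even-numbered markers of every list (Igfbp4, Lepr and Hp in the MALP list) and 2.82% with the odd-numbered ones. With the even-numbered markers, 10 genes were highest in the top score range. Correlations over pools were unstable, and the cause was not tested. Pparg with Adipoq was -0.0367 under the stricter gate and -0.203 with the odd-numbered markers, Pparg with Fabp4 0.0968 with run 2 and 0.109 with the even-numbered markers, Cebpa with Adipoq -0.0652, -0.0817, -0.0217 and -0.0216 under the stricter gate, the odd-numbered markers, no upper gene limit and thinning, and Cebpa with Fabp4 -0.00673 with run 2 and -0.313, -0.109 and -0.122 under the stricter gate, the odd-numbered markers and thinning. Past the threshold were Pparg with Cidec with run 2 (0.680) and the stricter gate (0.679) and Cebpa with Cd36 with the even-numbered markers (0.674), 1 of 12 pairs in each. With 1 pool left out, r ranged from -0.0495 to 0.251 for Pparg with Adipoq, -0.257 to 0.0599 with Fabp4, -0.0373 to 0.389 with Cd36, -0.218 to 0.296 with Plin1 and 0.432 to 0.739 with Cidec, and -0.0865 to 0.131 for Cebpa with Adipoq, -0.0889 to 0.172 with Fabp4 and 0.445 to 0.740 with Cd36. The number past the threshold was 0 to 2 of 12 pairs and 0 to 12 of 30 relations to the share of MALP-like cells, with the 2 pairs only without pool 13 and 0 of the 30 without pool 6. The fits without a scaling factor and with a gate from 1000 UMIs and the 30 relations were chosen after seeing the data. Depth limits Plin1 and Cidec most, with 21 to 122 UMIs in each of the 3 other main classes.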
